A study of Homo sapiens with 6 samples.

Results

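Aminoacyl-tRNA synthetases are the enzymes that load each tRNA with its amino acid before protein synthesis. The 36 genes described here were taken from a fixed list of names. Of these, 20 encode cytosolic enzymes and 16, whose names end in 2, encode enzymes of mitochondria. They were looked up among 16500 distinct gene names in the deposited tables. H3K4me3, trimethylated lysine 4 of histone H3 and a mark of active promoters, had been profiled by chromatin immunoprecipitation and sequencing in BE(2)-C, an established human neuroblastoma line with amplified MYCN. The cells received WDR5 siRNA-1 or control siRNA for 24 hours, 1 H3K4me3 library each, and IgG and input libraries completed the set of 6. WDR5 is a shared core protein of the enzymes that methylate H3K4, and N-Myc is the transcription factor encoded by MYCN. The series title names WDR5 and N-Myc target genes as its subject. The deposited tables hold lists of genes with a peak within 1 kb of a transcription start site and lists of promoters, split into those that bind N-Myc and those that do not. They hold no level, so a value below is the presence or absence of a name, its class or its row, and no test across replicates exists.

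The synthetases fall into catalytic classes I and II, which differ in the fold of the active site. Several cytosolic enzymes assemble with the scaffold proteins AIMP1, AIMP2 and EEF1E1 into a large multi-synthetase complex. Mitochondria translate their own few mRNAs with separate enzymes that are encoded in the nucleus and imported. The genes GARS and KARS encode both forms of their enzyme. The transcription factor ATF4, which is made when amino acids run short, is known to induce a number of cytosolic synthetase genes, and MYC proteins are known to promote the making of ribosomes and the translation machinery.

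Nearly all synthetase genes carried an H3K4me3 peak call with either siRNA. With WDR5 siRNA 35 of the 36 were listed, and with control siRNA all 36 were. All 20 cytosolic genes were listed in both libraries. Among mitochondrial genes 15 were listed with WDR5 siRNA and 16 with control siRNA. Over all names of the control list, 13.5% were control-only, that is, missing from the WDR5 siRNA list, against 1 of 36 synthetases (2.78%). The control-only share differed by N-Myc class, at 3.96% of all N-Myc-binding promoters and 10.4% of all non-binding ones. Of the 3087 N-Myc-binding promoters listed with control siRNA, 129 were control-only. Most synthetases in a promoter table were N-Myc-binding, so 13.5% is not a like background for them. In the other direction, 0.817% of all names in the WDR5 siRNA list were listed there only, and no synthetase was. A name in both lists has a call in each library, which leaves its H3K4me3 level unknown.

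The exception was VARS2, which encodes the valyl-tRNA synthetase of mitochondria. It was absent with WDR5 siRNA and present with control siRNA. Its cytosolic counterpart VARS had a call in both libraries. VARS2 was in neither promoter table, so its N-Myc class is not known here.

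**Figure D1:**
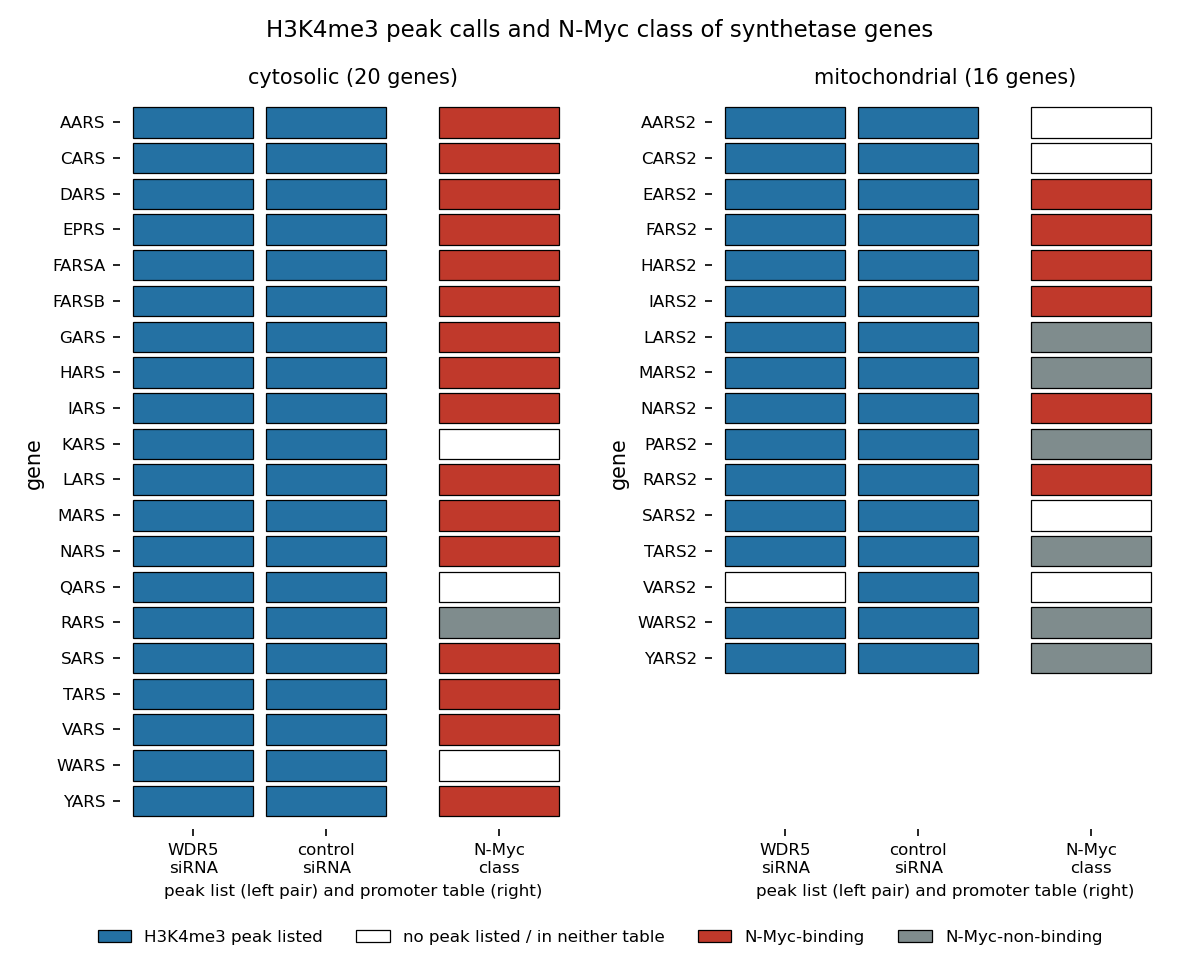
Each row is 1 synthetase gene, cytosolic on the left and mitochondrial on the right. The first pair of columns shows whether an H3K4me3 peak was listed with WDR5 siRNA and with control siRNA (blue, listed), and the last column shows the N-Myc class of the promoter (red, binding; grey, non-binding; white, in neither table). VARS2 is the only gene with an empty cell among the peak calls, and 16 cytosolic but 6 mitochondrial promoters are red.

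Most cytosolic synthetase promoters were N-Myc-binding, and fewer of the mitochondrial ones were. Of 17 cytosolic synthetases in a promoter table, 16 were N-Myc-binding (94.1%). Of 12 mitochondrial ones, 6 were (50.0%), a difference of 44.1 percentage points. Among all 9585 listed promoters, 33.9% were N-Myc-binding, and of the 5977 whose gene had a peak in both libraries, as every synthetase in the tables did, 49.5% were. The mitochondrial share thus lay near that of all promoters with both peaks, and the cytosolic share above it. Together the synthetases had 22 N-Myc-binding promoters of 29 in a table (75.9%). The sources used here do not say how a promoter was put in either class. Genes are not replicates, so no test of this difference was made.

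The 16 N-Myc-binding cytosolic promoters belonged to AARS, CARS, DARS, EPRS, FARSA, FARSB, GARS, HARS, IARS, LARS, MARS, NARS, SARS, TARS, VARS and YARS. RARS, the arginyl-tRNA synthetase, was the one cytosolic promoter classed as non-binding (hg19, chromosome 5, position 167913463). KARS, QARS and WARS were in neither table. EPRS (chromosome 1, position 220220000) encodes a fused enzyme that charges both glutamate and proline tRNAs. FARSA (chromosome 19, position 13044558) and FARSB (chromosome 2, position 223520827) encode the subunits of the phenylalanyl enzyme, and both promoters were N-Myc-binding. GARS (chromosome 7, position 30634181), which supplies the glycyl enzyme to cytosol and mitochondria alike, was N-Myc-binding too.

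Within the cytosolic set, the 8 genes of the multi-synthetase complex had 5 N-Myc-binding promoters of 6 in a table, namely DARS, EPRS, IARS, LARS and MARS, with RARS the exception. The 12 other cytosolic genes had 11 of 11. By catalytic class, 9 of 9 cytosolic class II promoters and 6 of 7 cytosolic class I promoters were N-Myc-binding, with EPRS, which joins enzymes of different classes, counted in neither. Among mitochondrial genes 3 of 5 class II (60.0%) and 3 of 7 class I promoters (42.9%) were. Of all promoters with both peaks 49.5% were N-Myc-binding, which lies between these mitochondrial shares. The class and complex counts are small, and the cytosolic count exceeded the mitochondrial one as a share in each class.

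The 6 N-Myc-binding mitochondrial promoters were those of EARS2, FARS2, HARS2, IARS2, NARS2 and RARS2. The 6 non-binding ones were those of LARS2, MARS2, PARS2, TARS2, WARS2 and YARS2. AARS2, CARS2 and SARS2 joined VARS2 in neither table. Pairing each mitochondrial enzyme with the cytosolic one for the same amino acid gave 17 pairs, of which 12 had both promoters in a table. In 6 of the 12 both promoters were N-Myc-binding, and in 5 only the cytosolic one was. In the remaining pair the order was turned round: RARS2 (chromosome 6, position 88299735) was N-Myc-binding and RARS was not. EPRS has a pair of mitochondrial partners, of which EARS2, for glutamate, was binding and PARS2, for proline, was not. FARS2 enters as the partner of both FARSA and FARSB, so the pairs are not independent.

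Several N-Myc-binding start sites lay next to another listed one. A second listed start within 1000 bp was found for 5 of the 22 N-Myc-binding synthetase promoters (22.7%), compared with 12.3% of all N-Myc-binding promoters and 6.07% of all promoters in the tables. HARS and HARS2, the cytosolic and mitochondrial histidyl enzymes, are neighbours on chromosome 5, with listed starts at 140071312 and 140071018, 294 bp apart. YARS (chromosome 1, position 33283633) lay 514 bp from S100PBP. EARS2 (chromosome 16, position 23568696) lay 166 bp from UBFD1. FARS2 (chromosome 6, position 5261584) lay 412 bp from LYRM4, which encodes a factor of mitochondrial iron-sulfur cluster assembly. Every one of these partners was itself N-Myc-binding and listed in both libraries, so a binding site of one start cannot be told apart from that of the other here. Over all promoters in the tables, 582 had such a neighbour, and 401 of these were N-Myc-binding. HARS and HARS2 are each other's partner, so the 5 are not independent. Mitochondrial genes supplied 3 of the 5 synthetase promoters. Without promoters that had such a neighbour, 14 of 15 cytosolic promoters were N-Myc-binding (93.3%), against 3 of 9 mitochondrial ones (33.3%) and 31.7% of all promoters. The last share includes promoters of genes without a peak call, whereas every synthetase in the tables had both peaks. It is therefore not a like comparison.

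**Figure D2:**
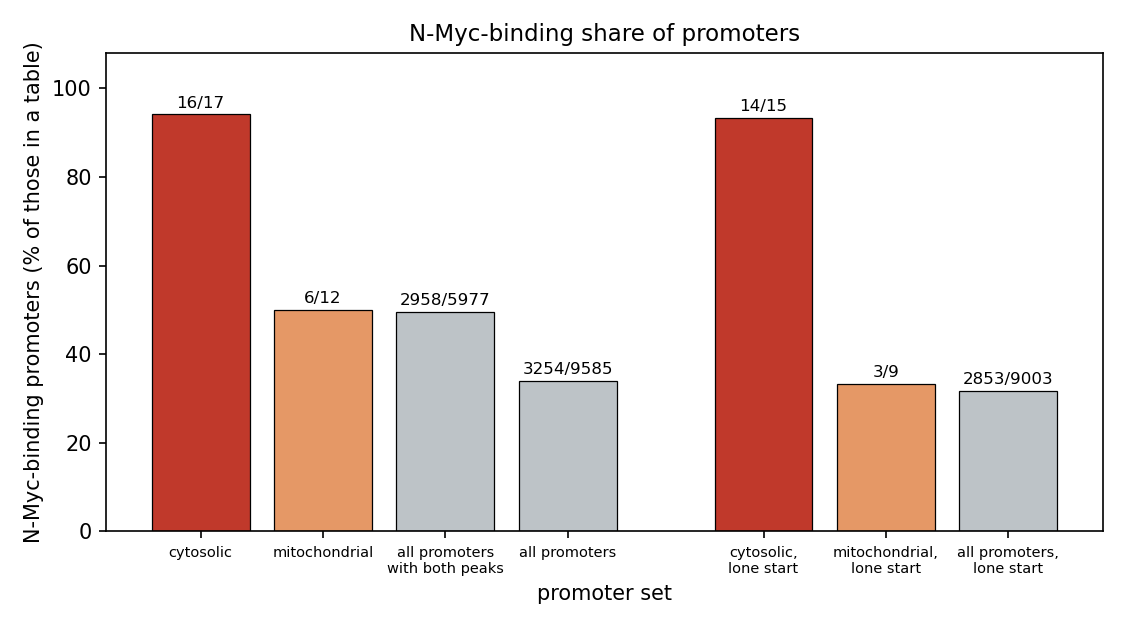
Bars give the percent of promoters classed as N-Myc-binding, with the counts above them. The left group uses every promoter in a table and the right group uses those with no other listed start within 1000 bp (lone start). The cytosolic bars stand at 94.1% and 93.3%, and the mitochondrial bars at 50.0% and 33.3%, beside grey bars for all promoters. The grey bar of the right group includes promoters of genes without a peak call.

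The promoter tables are sorted in a way that nothing in them explains, and peak calls change down the rows, so a member's row was set beside the calls of the 200 nearest rows. In the N-Myc-binding table, the 22 synthetases lay at a median of 38.7% of the table length, against 45.6% for all promoters listed in both libraries and 90.3% for control-only ones. EARS2 came earliest, at row 394 of 3254, followed by VARS at row 499, FARSB at row 512 and AARS at row 515. For 13 of the 22 (59.1%), none of the 200 nearest rows was control-only, as for 58.1% of all N-Myc-binding promoters listed in both libraries. IARS (chromosome 9, position 95056038), the isoleucyl enzyme, stood last at row 2775, where 28 of the 200 nearest rows were control-only. RARS2 stood at row 2741, with 22 control-only rows around it. The positions of the cytosolic and mitochondrial genes overlapped, with medians of 38.7% and 39.7% in this table.

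In the N-Myc-non-binding table, the rows around the members varied widely in their calls. Of all 6331 rows 10.4% were control-only, or 20.7 in every 200 rows. TARS2 (chromosome 1, position 150459840), the threonyl enzyme of mitochondria, stood at row 3461 of 6331. Of the 200 nearest rows 135 were control-only, 28 were listed in both, 36 in neither and 1 with WDR5 siRNA only, yet TARS2 was listed in both. WARS2 (chromosome 1, position 119683295) had 85 control-only rows around it, PARS2 (chromosome 1, position 55230226) had 46 and LARS2 (chromosome 3, position 45430075) had 29, the last nearest to the table's own share. MARS2, YARS2 and RARS, the other members of this table, had none. That is 3 of 7 (42.9%), against 47.5% of all non-binding promoters listed in both libraries. The median of the 7 members was 39.6% of the table length, against 23.9% for all non-binding promoters listed in both libraries. What the order stands for is unknown, so a late row is not read as a low level.

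**Figure D3:**
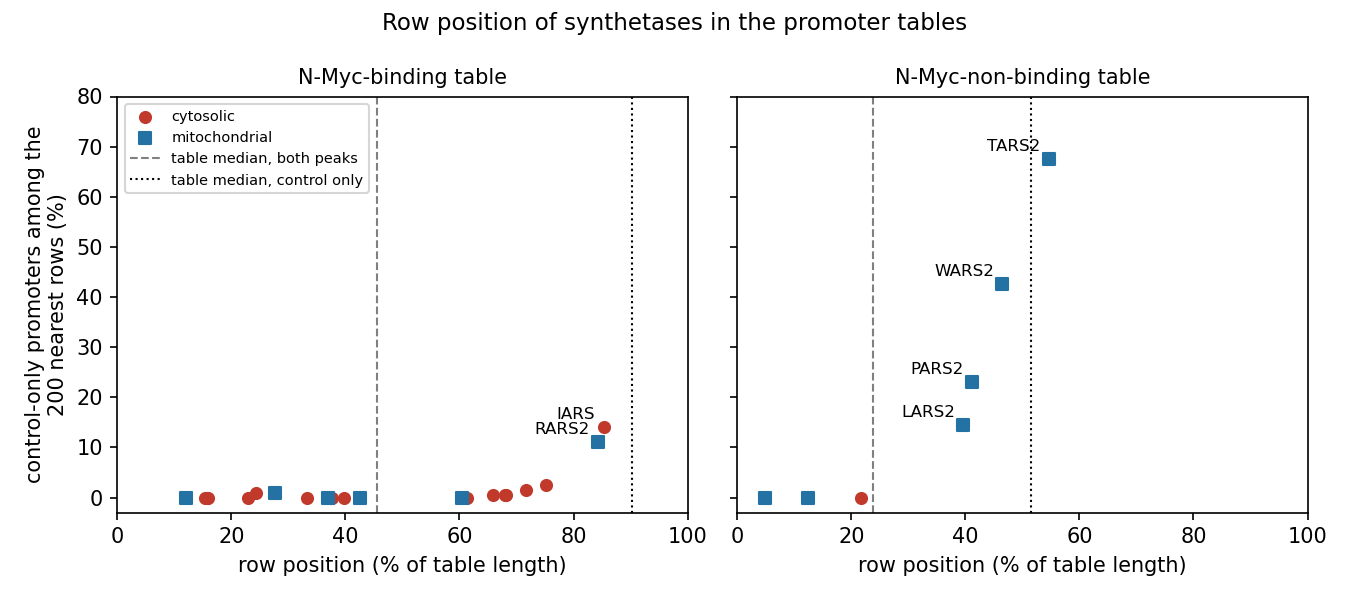
Each point is 1 synthetase promoter, with its row position as a percent of the table length on the horizontal axis and the percent of control-only promoters among its 200 nearest rows on the vertical axis. Lines mark the table medians of promoters listed in both libraries (dashed) and of control-only promoters (dotted). TARS2 stands highest at 67.5% and WARS2 next at 42.5%, while most members lie at or near 0.

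Promoter sequence was examined for the motifs of factors tied to these genes, in 300-base RefSeq windows on GRCh38.p14 that run from 250 bases before a start to 50 after it. All 36 genes matched a RefSeq entry and 30 had a window, 16 cytosolic and 14 mitochondrial. DARS, LARS, VARS, YARS, AARS2 and VARS2 had none in the table used. The authors' start sites are on hg19 and may differ from these starts. A match describes letters only and does not show that a factor binds.

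The canonical E-box CACGTG, which N-Myc with its partner MAX recognises, was present in few synthetase windows. It was found in 4 of the 30 windows (13.3%), those of IARS, CARS2, EARS2 and MARS2, and in 2 of the 18 N-Myc-binding synthetase windows (11.1%). By compartment it was in 1 of 16 cytosolic windows (6.25%) and 3 of 14 mitochondrial ones (21.4%), the opposite order to the N-Myc-binding shares. Of all RefSeq windows 7.43% held it. The share was 15.1% of N-Myc-binding windows listed in both libraries and 7.14% of non-binding ones. With CACGCG and CATGTG counted as well, on either strand, 11 of 30 windows held a form of the motif (36.7%), against 27.5% of all windows. Of the N-Myc-binding synthetase windows 8 of 18 held one (44.4%), against 39.5% of N-Myc-binding windows with both peaks. Of the non-binding synthetase windows 2 of 7 did (28.6%), against 27.0% of non-binding ones with both peaks. By compartment a form was found in 4 of 16 cytosolic windows (25.0%) and 7 of 14 mitochondrial ones (50.0%). MARS2, which is N-Myc-non-binding, held the canonical form 11 bases before its start. The windows of the N-Myc-binding IARS and EARS2 are shown 5′ to 3′ because they hold it. In capitals are CACGTG in both and, in IARS, an ATF4 motif, which reads TTGCATCA on this strand.
IARS, chr9:92293648-92293947, minus strand: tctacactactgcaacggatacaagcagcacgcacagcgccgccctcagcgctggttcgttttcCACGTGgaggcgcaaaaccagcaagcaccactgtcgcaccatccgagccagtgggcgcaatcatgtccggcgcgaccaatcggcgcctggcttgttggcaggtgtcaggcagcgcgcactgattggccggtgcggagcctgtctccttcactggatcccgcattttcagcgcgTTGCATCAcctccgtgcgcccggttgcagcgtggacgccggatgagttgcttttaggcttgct
EARS2, chr16:23557301-23557600, minus strand: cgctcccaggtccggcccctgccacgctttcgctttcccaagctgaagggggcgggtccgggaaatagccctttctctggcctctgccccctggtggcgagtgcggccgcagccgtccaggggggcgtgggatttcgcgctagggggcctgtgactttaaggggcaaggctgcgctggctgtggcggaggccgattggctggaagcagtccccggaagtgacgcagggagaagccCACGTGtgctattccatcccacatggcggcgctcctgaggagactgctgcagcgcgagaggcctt

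The ATF4 motif was found in more cytosolic than mitochondrial windows. The letters TGATGNAA, on either strand, were found in 6 of 16 cytosolic windows (37.5%) and in 1 of 14 mitochondrial ones (7.14%). They were found in 3.67% of all RefSeq windows, 1.49% of N-Myc-binding windows listed in both libraries and 1.68% of non-binding ones. The cytosolic genes were AARS, CARS, IARS, MARS, NARS and TARS, all N-Myc-binding and all listed in both libraries. The count rests on bases at and after the start: within the 250 bases before it, 2 of 16 cytosolic windows (12.5%) and 1 of 14 mitochondrial ones (7.14%) held a whole match, against 3.19% of all windows. In each of the 6 the sequence was exactly TGATGCAA or its reverse complement TTGCATCA, which 0.923% of all windows held, as did 0.725% of N-Myc-binding windows with both peaks and 0.410% of non-binding ones. The mitochondrial match, in YARS2, reads TGATGGAA. Stretches of 30 bases around each match are shown because they can be compared letter by letter, with the motif in capitals. They were chosen after the matches were seen.
AARS, chr16:70289675-70289704, minus strand: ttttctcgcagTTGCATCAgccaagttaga
CARS, chr11:3057407-3057436, minus strand: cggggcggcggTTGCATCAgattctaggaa
IARS, chr9:92293692-92293721, minus strand: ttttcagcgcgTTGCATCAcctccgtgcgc
MARS, chr12:57488053-57488082, plus strand: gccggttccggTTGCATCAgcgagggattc
NARS, chr18:57621804-57621833, minus strand: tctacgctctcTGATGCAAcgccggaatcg
TARS, chr5:33440956-33440985, plus strand: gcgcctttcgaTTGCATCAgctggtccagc
YARS2, chr12:32756076-32756105, minus strand: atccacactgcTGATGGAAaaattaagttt

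The match began 13 bases before the RefSeq start in IARS, 4 before it in MARS and 2 before it in CARS. It began at base 3 after the start in TARS and at base 15 in NARS. In these 5 genes it thus lay close to the start, whereas in AARS it began 187 bases before it and in YARS2 197 bases before it. Using every RefSeq window of a gene in place of the first gave 7 of 16 cytosolic genes with TGATGNAA and left the exact form at 6 of 16. Under the same setting 4.46% of all RefSeq genes held TGATGNAA and 1.08% the exact form.

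HARS and HARS2 have divergent RefSeq starts 85 bases apart, and their windows share 184 bases. The ETS motif CCGGAAGT occurs at 2 places in that shared stretch, once on each strand. ETS factors such as GABP are known to act at many promoters of nuclear genes for mitochondrial proteins. The window of HARS2 is shown for these sites, with the motif of either strand in capitals.
HARS2, chr5:140691205-140691504, plus strand: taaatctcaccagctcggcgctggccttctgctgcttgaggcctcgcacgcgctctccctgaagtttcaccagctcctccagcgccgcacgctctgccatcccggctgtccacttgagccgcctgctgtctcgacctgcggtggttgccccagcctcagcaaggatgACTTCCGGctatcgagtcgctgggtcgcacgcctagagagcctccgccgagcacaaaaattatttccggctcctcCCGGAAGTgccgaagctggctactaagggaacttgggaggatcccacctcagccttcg

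Over the 30 windows the ETS motif was found in 7 (23.3%), 4 cytosolic and 3 mitochondrial, against 4.44% of all windows, 11.3% of N-Myc-binding windows with both peaks and 8.49% of non-binding ones. HARS and HARS2 count the same sites. The motif of NRF1, another regulator of nuclear genes for mitochondria, was found in 1 window, that of MARS2 (3.33%, against 1.36% of all windows, 3.54% of N-Myc-binding windows with both peaks and 2.13% of non-binding ones).

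**Figure D4:**
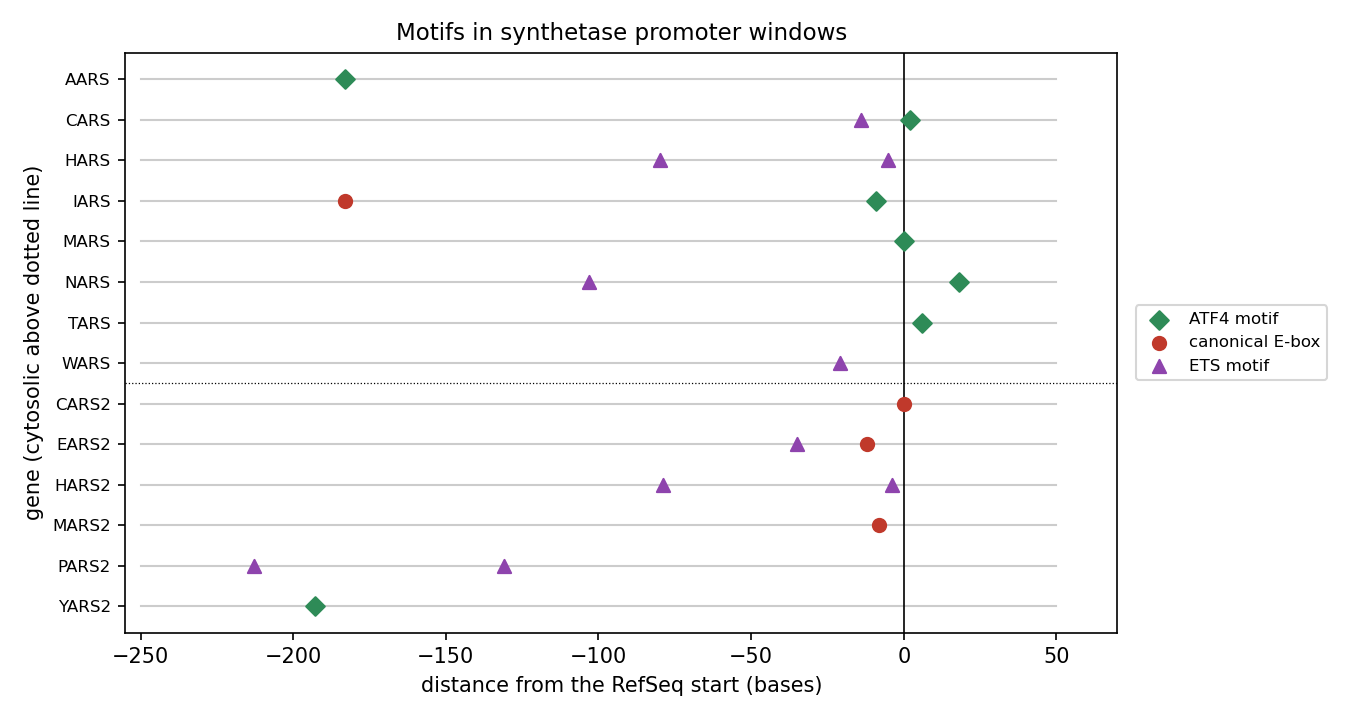
Each line is the promoter window of 1 synthetase gene that held a motif, with distance from the RefSeq start in bases on the horizontal axis. Symbols mark the centres of ATF4 motifs, canonical E-boxes and ETS motifs. Of the 6 cytosolic ATF4 motifs, 5 lie close to the start, and AARS is the exception.

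**Figure D5:**
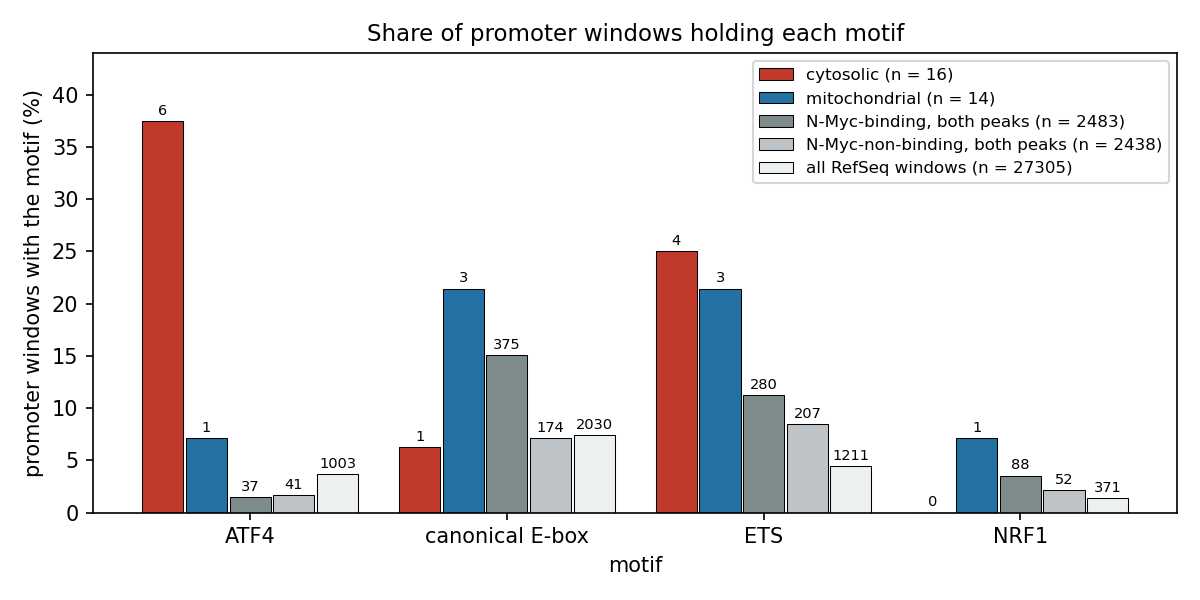
Bars give the percent of promoter windows that hold each motif on either strand, with the number of windows above each bar. The ATF4 motif stands at 37.5% of cytosolic windows and 7.14% of mitochondrial ones, against 3.67% of all RefSeq windows, while the canonical E-box stands at 6.25% of cytosolic windows and 21.4% of mitochondrial ones.

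Other genes of tRNA charging were set beside the synthetases. Of 11 partner genes, 9 were listed with WDR5 siRNA and 10 with control siRNA, and the 1 control-only gene of 10 (10.0%) compares with 13.5% of all control names. The scaffold genes AIMP1, AIMP2 and EEF1E1 were listed in both libraries, and EEF1E1 was N-Myc-binding. PET112, which encodes a subunit of the amidotransferase that makes glutaminyl-tRNA in mitochondria, was control-only, and AARSD1 was in neither list. All 22 genes of tRNA maturation and export were listed in both libraries, among them ELAC2, NSUN2 and XPOT. Of the 19 in a table, 14 were N-Myc-binding (73.7%), against 49.5% of all promoters with both peaks.

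The 13 amino acid response genes, many of them ATF4 targets, were also all listed in both. ATF4 itself, ASNS, the asparagine synthetase, and DDIT3, a stress-induced transcription factor, were N-Myc-binding. SLC7A11, a cystine transporter, was the one gene of that list in the non-binding table. Of the 10 genes in a table, 9 were N-Myc-binding (90.0%), against 49.5% of all promoters with both peaks. The windows of the amino acid response genes held TGATGNAA in 4 of 12 cases (33.3%) and the exact TGATGCAA in 1.

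As a check of the label, all 7 adrenergic neuroblastoma markers examined had a control siRNA peak and 5 had one with WDR5 siRNA. DBH and TH were control-only (28.6%, against 13.5% of all control names), a count too small to compare. None of 7 markers of blood, epithelium, liver, muscle, endothelium and Schwann cells was listed in either library.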

How the data were processed

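H3K4me3 libraries of BE(2)-C cells with WDR5 siRNA-1 or control siRNA were compared, 1 per group by title and antibody. Per the submitters' processing notes, BWA 0.7.12 and bedtools were used with genome build hg19. The peak caller, its threshold and the depth per library are not stated in these sources. The deposited columns are gene names and start positions with no measured unit, per the file headers, and the second coordinate was taken as the 1-based start. IgG and input values were not used. Members were matched by exact name, and every promoter name occurred once. RefSeq windows (GRCh38.p14) were joined by gene ID, 1 per gene, the first listed, and motifs were searched on both strands. Matching reached 7691 of 9585 promoter rows. Name classing and motif search were tested on simulated data. The members and lists were chosen with earlier results of these data known. The rule for named genes covered all members, plus list genes missing from a library and up to 3 others. More than 3 others are named from the partner and amino acid response lists, outside the rule. The rule limited windows to N-Myc-binding members with CACGTG, the HARS and HARS2 pair, and members not in both lists. The 30-base stretches fall outside it, and HARS, whose window overlaps that of HARS2, is not printed. 1 gene of the fixed partner list is not reported here. The ETS, NRF1 and ATF4 motifs were added later. The tools were matplotlib 3.10.9, pandas 2.3.3, scipy 1.17.1 and numpy 2.4.6 under Python 3.11.15.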

Additional observations from a re-analysis of the deposited data

How the results depend on the processing

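No paired analysis was possible because each group holds 1 library, and for the same reason no replicate could be left out. Names with a single row and lookups by newer symbols left 1 control-only synthetase. Restricting the background to names in a promoter table put its control-only share at 11.6%, in place of 13.5%. The N-Myc-binding share of synthetases ran between 61.1% (all 36 as denominator) and 75.9%. A denominator of all members counts the 7 genes in neither table as not binding. The cytosolic minus mitochondrial difference stayed positive in each of 4 alternatives, between 42.5 points over all members and 60.0 points without promoters that had a listed neighbour within 1000 bp. It was 43.8 points without GARS and KARS, of which only GARS was in a table, and 48.3 points without HARS and HARS2. The neighbour filter per compartment and the denominator of all members were chosen after the data were seen. With the added E-box forms 36.7% of windows held one, because more letters were searched. For the canonical form in the bases before the start the share was 10.0%, against 6.49% of all RefSeq windows. It was 13.2% of N-Myc-binding windows listed in both libraries and 6.48% of non-binding ones. For the ATF4 motif, settings chosen after the data were seen gave 12.5% of cytosolic windows with the bases before the start alone, since matches at or after it drop out, and 43.8% with every window of a gene. The difference in median row position was -2.77 points of table length over both tables and -1.08 in the N-Myc-binding table. Promoters listed in both libraries had medians of 45.6% in the N-Myc-binding table and 23.9% in the non-binding one. The pooled difference therefore mixes N-Myc class with compartment. Without depth, an unlisted name says only that no peak was called.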

Other observations

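Most genes of mitochondrial protein synthesis were listed in both libraries, as were most names of the control list. Over the 16 mitochondrial synthetases, MTFMT, QRSL1, PET112, GATC and 10 mitochondrial translation factors, 3 of 30 were control-only (10.0%). That share is near the 13.5% of all control names. The 3 genes were VARS2, PET112 and MTRF1, a member of the release factor family. The translation factor genes TUFM, TSFM and GFM2 were N-Myc-binding and listed in both libraries. Of the 10 translation factors, 9 were listed with WDR5 siRNA and 10 with control siRNA. Of the 6 in a table, 4 were N-Myc-binding (66.7%), against 45.7% of all promoters listed with control siRNA. That count is too small to set them apart. The grouping of 30 genes was made after the calls were seen.

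Names in the control list run along the chromosomes: 6757 of 6761 consecutive names on one chromosome rose in position. Of the 10 names within 5 steps of VARS2 in that list, 4 were control-only, namely MDC1, CCHCR1, TCF19 and MICB, and the other 6 were listed in both. Over all control names the control-only share was 13.5%. These 10 names were taken around a gene already known to be control-only, so their count was not tested against that share. Of the adjacent names on either side, CCHCR1 was control-only and GTF2H4 was listed in both.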
